A study of Homo sapiens with 8 samples.

Results

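The comparison described here follows the human leukaemia line NB4 from 6 h to 24 h of exposure to 40 uM chlorprothixene, with 12 h as the middle point. NB4 cells derive from a patient's acute promyelocytic leukaemia with the fusion gene PML-RARA, and chlorprothixene is a thioxanthene antipsychotic that blocks dopamine receptors. The 3 NB4 libraries exposed for 6, 12 and 24 h were taken by their titles from the 8 libraries of the series, which also holds an untreated NB4 library and 4 libraries of Kasumi-1, a myeloblastic leukaemia line with the RUNX1-RUNX1T1 fusion, without drug and at the same 3 times. All were made from total RNA of cultured cells grown with serum. The untreated NB4 library does not enter the comparison, and its values are given only as a reference.

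Each time is represented by 1 library, so no difference between times has a replicate check and none carries a spread between cultures. Time with the drug and time in culture cannot be told apart, because no vehicle or untreated library of the same time was analysed. Levels are TPM, a transcript abundance scaled for gene length and to the same total in every library. A difference is the 24 h value minus the 6 h value of log2(TPM + 1), and the added 1 makes the differences of genes with few TPM smaller than their ratios. A gene is said to have risen or fallen where this difference was at least 2-fold, which is 1 on the log2 scale. The filter of at least 5 TPM in at least 1 of the 3 libraries was passed by 10921 of 55765 gene names.

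The RNA was that of promyelocyte-like cells by most of the markers. MPO stood at 3140.3, 2104.4 and 1528.4 TPM at 6, 12 and 24 h, and CD33 at 47.8, 56.9 and 60.2 TPM. ELANE, the gene of neutrophil elastase, was at 0.626, 0.00945 and 0.257 TPM and went against the other promyelocyte markers in this respect. Of 8 monocyte and macrophage markers 2 passed the filter, CSF1R among them, and CD14, FCGR3A, CD163, MRC1, MSR1 and LILRB2 stayed at or below 0.813 TPM. No erythroid or megakaryocyte marker of 10 passed the filter, and EPCAM was the only 1 of 8 epithelial and fibroblast markers that did, at 18.5, 15.7 and 17.8 TPM. Of 10 lymphoid markers 4 passed, namely NKG7, CD3D, CD79A and CD79B, while CD3G, MS4A1 and CD7 were listed at 0 throughout. A value of 0 can also be a failed estimate in these tables: TUBB, a tubulin gene that dividing cells use, was listed at 0 in all 3 libraries.

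Promyelocytes are the stage of neutrophil development at which the primary granules are filled with myeloperoxidase and serine proteases. When such cells mature, the granule protein genes are turned down, and surface molecules for adhesion and for binding antibody-coated particles, the leukocyte integrins and Fc receptors, are turned up. Heat shock proteins are chaperones that refold or hold damaged proteins, and their genes are switched on by the factor HSF1 through repeats of the element nGAAn. Shortage of amino acids and other stresses raise the factor ATF4, which drives enzymes of amino acid synthesis such as ASNS. Cholesterol synthesis is driven by SREBP2, and cationic amphiphilic drugs, a class to which chlorprothixene belongs, are known to collect in lysosomes.

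Between 6 and 24 h, 403 genes rose and 105 fell, which is 3.69% and 0.961% of the 10921 genes and 4.65% for both directions together. The median difference of all genes was -0.04 on the log2 scale, with 4898 genes above 0 and 6022 below 0. With FPKM in place of TPM the median was 0.01, so the sign of this small shift turns with the unit. Of the genes that rose, 319 were protein-coding by a matched gene type, which CCL3 and C1orf186 lack. Among the 403 risers, 204 had been under 5 TPM at 6 h. Such genes passed the filter only through a later library. Counts of rises, counts above 0 and medians in the lists below are therefore descriptions of the members that passed. The 12 h value lay between the other two times in 350 of the 403 risers (86.8%) and in 81 of the 105 fallers (77.1%), against 5066 of all genes (46.4%). A wide gap between the end points leaves more room for a value in between, so these shares are a description. Just inside the fold threshold lay SQLE with a log2 difference of 1.0004 and CAPZA1 with -1.004, and just outside DNASE1L1 with 0.997 and SMIM3 with -0.995. The level threshold was passed by RSG1 with 5.01 TPM and missed by ZKSCAN3 with 4.997 TPM. In RNA from a whole culture, fewer cells of a kind and less RNA per cell cannot be told apart, and this holds for every value below.

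**Figure D1:**
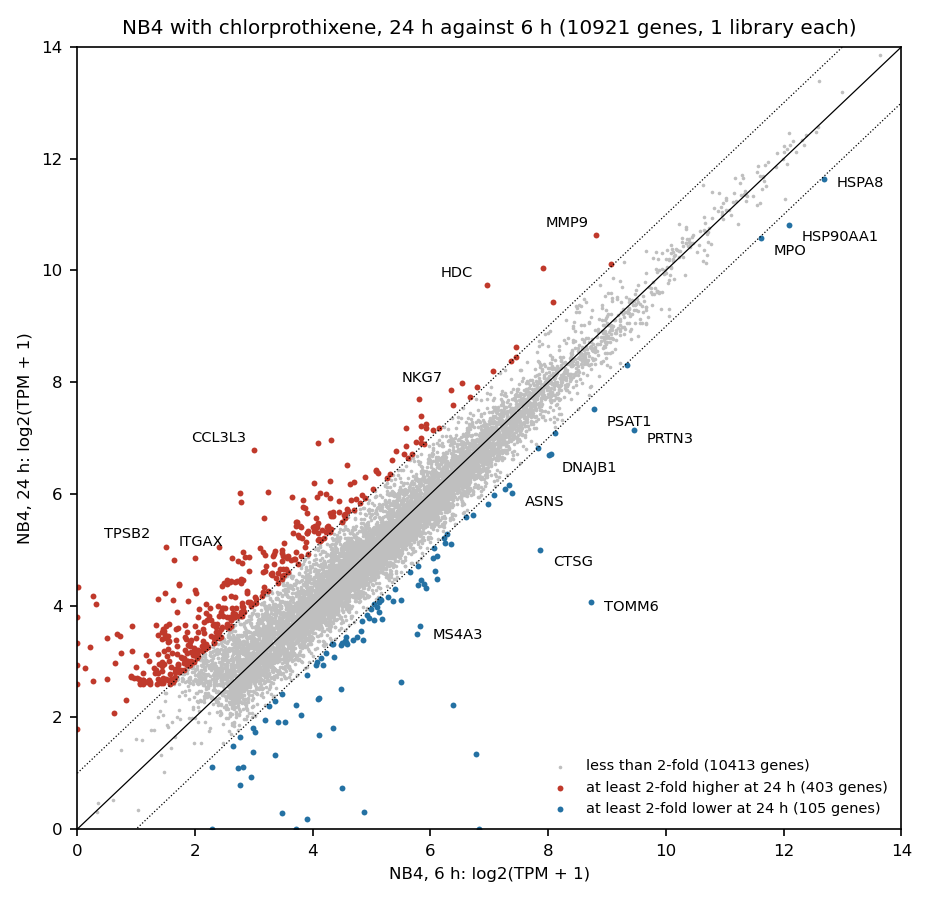
Level of each of the 10921 genes at 6 h (horizontal axis, log2(TPM + 1)) against its level at 24 h (vertical axis, log2(TPM + 1)) in NB4, 1 library per time, with lines at equal levels and at 2-fold either way. The 403 genes above the upper line and the 105 below the lower line are coloured, and ITGAX, HDC and TPSB2 lie far above the diagonal while CTSG, PRTN3 and MPO lie below it.

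The libraries were of like breadth: 13358, 13767 and 13944 genes reached 1 TPM at 6, 12 and 24 h. The mitochondrially encoded genes held 5.04%, 6.41% and 5.62% of all TPM and the 10 most abundant genes 6.62%, 7.27% and 7.29%. Strand-specific preparation is not given in the sources used here, so reads of overlapping genes cannot be told apart. Of the risers 190 (47.1%) and of the fallers 47 (44.8%) overlapped another gene of at least 1 TPM, as did 4443 of all genes tested (40.7%). Among the genes named in the paragraphs below, this holds for HDC, MMP9, ITGB2, ICAM1, PLAU, PLAUR, CSF1R, GATA2, FCGR1A, FCGR1B, TLR1, TLR6, HSP90AA1, HSPA8, HSPD1, DNAJB1, HMGCS1, ACSS2, NPC1, NPC2, GM2A, SQSTM1, PLK1, ODC1, MTHFD1L, CXCL10, REL, TNFAIP3, FOSB, FAS, ENO2, ALDOC, PFKFB4, IRF9, RPL15, TUBA4A, C1orf186, DEPDC1, ZNF114, TOMM6, PRICKLE4, MTATP6P1, LDHA, SNORA77, SNORD36A and SNORD88C.

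Serine proteases of the primary granules fell steadily. CTSG encodes cathepsin G and lies on chromosome 14 (25042728 to 25045466, minus strand, hg19). Its level went from 464.3 TPM in the untreated library to 232.2, 95.1 and 31.0 TPM at 6, 12 and 24 h, a log2 difference of -2.86 between 6 and 24 h and the largest fall of a protein-coding gene that overlaps no other gene of at least 1 TPM. PRTN3, the gene of proteinase 3 on chromosome 19 (840963 to 848175, plus strand, hg19), stood at 702.7, 228.4 and 139.8 TPM and fell by 2.32 on the log2 scale. MPO, myeloperoxidase, fell by 1.04 on the log2 scale from 3140.3 to 1528.4 TPM, and at 24 h it was below the 4889.1 TPM of the untreated library. With FPKM its log2 difference was -0.98, just short of 2-fold. MS4A3, a membrane protein gene of early granulocytes, kept 50.8 TPM at 12 h after 55.4 TPM at 6 h and was at 11.4 TPM at 24 h, a log2 difference of -2.19.

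The rest of the primary granule list moved less. Of its 14 members 10 passed the filter, 3 fell (CTSG, PRTN3 and MPO) and none rose, with a median log2 difference of -0.41 against -0.04 over all genes. RNASE2, an eosinophil-type ribonuclease, was at 259.3, 210.2 and 160.4 TPM (log2 difference -0.69) and AZU1, azurocidin, at 196.2, 151.3 and 138.0 TPM. SERPINB1, an inhibitor of the same proteases, had the highest difference of the list at 0.31. The summed level of the 14 genes was 7984, 5689 and 5113 TPM, so most of the loss of this sum lay between 6 and 12 h. The sum was mostly MPO and SRGN, which was at 3168.9, 2632.9 and 2807.3 TPM. CTSG went by -1.28 and then -1.59 on the log2 scale in the early and late step, and PRTN3 by -1.62 and then -0.70. Transcription factors of the lineage were mixed: of 15 tested, 8 lay above 0 and 7 below, with a median of 0.31. CEBPA was at 92.8, 89.3 and 68.9 TPM. CEBPE, which directs late granule genes, was at 44.8, 68.4 and 65.9 TPM, and SPI1, which encodes PU.1, at 246.9, 327.1 and 313.2 TPM. CEBPD had the lowest difference among the 15 lineage factors tested (139.3, 122.2 and 75.0 TPM, log2 difference -0.88). In that list 2 members rose, among them ID3 (2.22, 5.73 and 7.77 TPM), by 1.44 on the log2 scale.

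Genes of the later granules and of the phagocyte oxidase went the other way where they were measurable. MMP9, the gelatinase of the tertiary granules, was at 446.6, 1235.6 and 1579.1 TPM, a rise of 1.82 on the log2 scale from a level already above the 43.6 TPM of the untreated library. CYBB, the catalytic subunit of the oxidase, was at 56.0, 136.0 and 126.8 TPM and had risen in full by 12 h. These were 2 of 5 tested members of the secondary and tertiary granule list that rose, and the median of the 5 was 0.69. The other 7 of 12 members did not reach 5 TPM. LCN2, MMP8, CEACAM8 and OLFM4 were listed at 0, and LTF, lactoferrin, at 0, 0 and 1.03 TPM.

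Of the adhesion molecules of the leukocyte surface, 5 rose. ITGAX encodes the integrin chain CD11c on chromosome 16 (31366455 to 31394318, plus strand, hg19). It went from 1.67 TPM untreated to 3.02, 14.6 and 27.9 TPM, a log2 difference of 2.85. ITGAM, the CD11b chain, was at 12.1, 37.1 and 44.4 TPM (1.79 on the log2 scale), and ITGB2, their common partner CD18, at 91.5, 190.1 and 253.8 TPM (1.46 on the log2 scale). CD44, the hyaluronan receptor, rose by 1.96 on the log2 scale from 5.99 to 26.3 TPM with 14.6 TPM at 12 h, and SELPLG, the selectin ligand, by 1.38 from 15.5 to 41.8 TPM. Of 14 genes in the list 10 passed the filter, 5 of these rose, none fell, and the median difference was 0.94. The median was 0.78 between 6 and 12 h and 0.32 between 12 and 24 h, so the larger step was the early one. The lowest difference was that of ITGA4, at 99.3, 136.2 and 91.8 TPM. ICAM1 was at 339.8, 494.0 and 378.7 TPM against 6.58 TPM untreated, and its 12 h value was the highest of the 3.

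Fc receptors and their signalling adaptors gave a like count, with 5 of 10 tested members higher by 2-fold, none lower and a median of 1.01. FCGR1A, the high-affinity receptor for IgG, was at 14.1, 19.1 and 39.2 TPM, and its copy FCGR1B at 12.2, 19.3 and 44.4 TPM, with log2 differences of 1.41 and 1.78. The division of reads between these near-identical genes is uncertain. The adaptor genes TYROBP (13.9, 25.3 and 38.5 TPM) and FCER1G (60.1, 122.1 and 151.1 TPM) rose by 1.41 and 1.32 on the log2 scale. FCGR2A, a low-affinity receptor, rose by 1.31 from 15.3 to 39.5 TPM. FCAR, the receptor for IgA, had the lowest difference of the list, with 7.38, 8.89 and 4.74 TPM (log2 difference -0.54).

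Among the myeloid cytokine receptors 9 of 12 were tested, all 9 lay above 0 and the median was 0.49. CSF2RB (3.38, 3.88 and 5.13 TPM) and IL3RA passed the filter only through later libraries. Of the members not tested, FLT3 (2.36, 0.898 and 1.44 TPM) and KIT were lower at 24 h than at 6 h, and IL10RA was higher. CSF1R, the receptor for the macrophage growth factor, rose by 1.84 on the log2 scale (5.08, 13.3 and 20.8 TPM), and IL3RA, the alpha chain of the interleukin 3 receptor, by 1.15 (4.23, 7.65 and 10.6 TPM). CSF3R, the granulocyte growth factor receptor, was at 22.8, 31.4 and 28.3 TPM. Of 10 tested pattern and chemoattractant receptors, TLR6 (4.57, 7.61 and 13 TPM) and TLR1 (5.09, 5.38 and 11.5 TPM) rose by 1.33 and 1.04 on the log2 scale, and the median was 0.60. S100 proteins and annexins, calcium-binding proteins, had 3 of 10 tested members that rose and a median of 0.55. These were S100A6 (12.2, 27.6 and 42.2 TPM, 1.71 on the log2 scale), ANXA5 (109.8, 217.7 and 239.8 TPM, 1.12) and ANXA2 (100.7, 179.1 and 211.3 TPM, 1.06). The members best known from mature neutrophils and monocytes did not pass the filter: S100A9 was at 3.24, 2.02 and 0.767 TPM, S100A8 at 0.131, 0.234 and 0 TPM, and S100A12 was listed at 0.

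Genes of fibrinolysis and clotting are of interest in acute promyelocytic leukaemia, a disease known for bleeding. Of 8 tested members 4 rose, 7 lay above 0 and the median was 0.996. PLAUR, the urokinase receptor, was at 56.6, 118.6 and 147.3 TPM (1.36 on the log2 scale), and its ligand gene PLAU at 51.3, 93.7 and 98.5 TPM, with a log2 difference of 0.93 just short of 2-fold. TFPI, an inhibitor of the tissue factor pathway, rose by 1.36 on the log2 scale (2.77, 5.74 and 8.64 TPM), and ANXA2, already named, is another of the 4. F3, the tissue factor gene, was at 85.1, 103.5 and 85.3 TPM, with its highest value at 12 h. THBD, PLAT and SERPINB2 did not pass the filter and stayed at or below 0.768 TPM. The median of the list was 0.83 between 6 and 12 h and 0.19 between 12 and 24 h.

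Several genes known from mast cells and basophils stood among the largest rises, and a list of 18 such genes was drawn up after these values had been seen. HDC, the enzyme that makes histamine, was at 122.9, 426.0 and 848.7 TPM after 140.1 TPM untreated, a log2 difference of 2.78. The tryptase genes TPSB2 (1.85, 14.8 and 32.3 TPM) and TPSAB1 (2.14, 11.7 and 27.3 TPM) rose by 3.55 and 3.17 on the log2 scale, with an uncertain division of reads between these similar copies on chromosome 16. SIGLEC6 (1.76, 3.49 and 10.7 TPM), CD9 (17.8, 31.7 and 62.9 TPM), IL3RA and GATA2 (64.9, 90.2 and 139.8 TPM) rose as well. Because the list was drawn from these rises and TPSB2, TPSAB1, SIGLEC6 and IL3RA passed the filter only through later libraries, its count of rises carries no weight. The 11 members that did not pass the filter stayed at or below 3.77 TPM. Among them KIT (0.311, 0.0589 and 0.0699 TPM), CPA3 and MS4A2 were near 0 and FCER1A was listed at 0. GFI1B encodes a transcriptional repressor that acts in the erythroid and megakaryocyte lineages. It was at 1.57, 2.63 and 16.3 TPM and rose by 2.75 on the log2 scale, mainly after 12 h. Of the lymphoid markers, NKG7 (80.8, 138.8 and 230.6 TPM) and CD3D (4.29, 9.56 and 13 TPM) rose by 1.5 and 1.4 on the log2 scale, and TRAC, the constant segment of a T cell receptor chain, was at 18.9, 64.6 and 123.9 TPM.

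**Figure D2:**
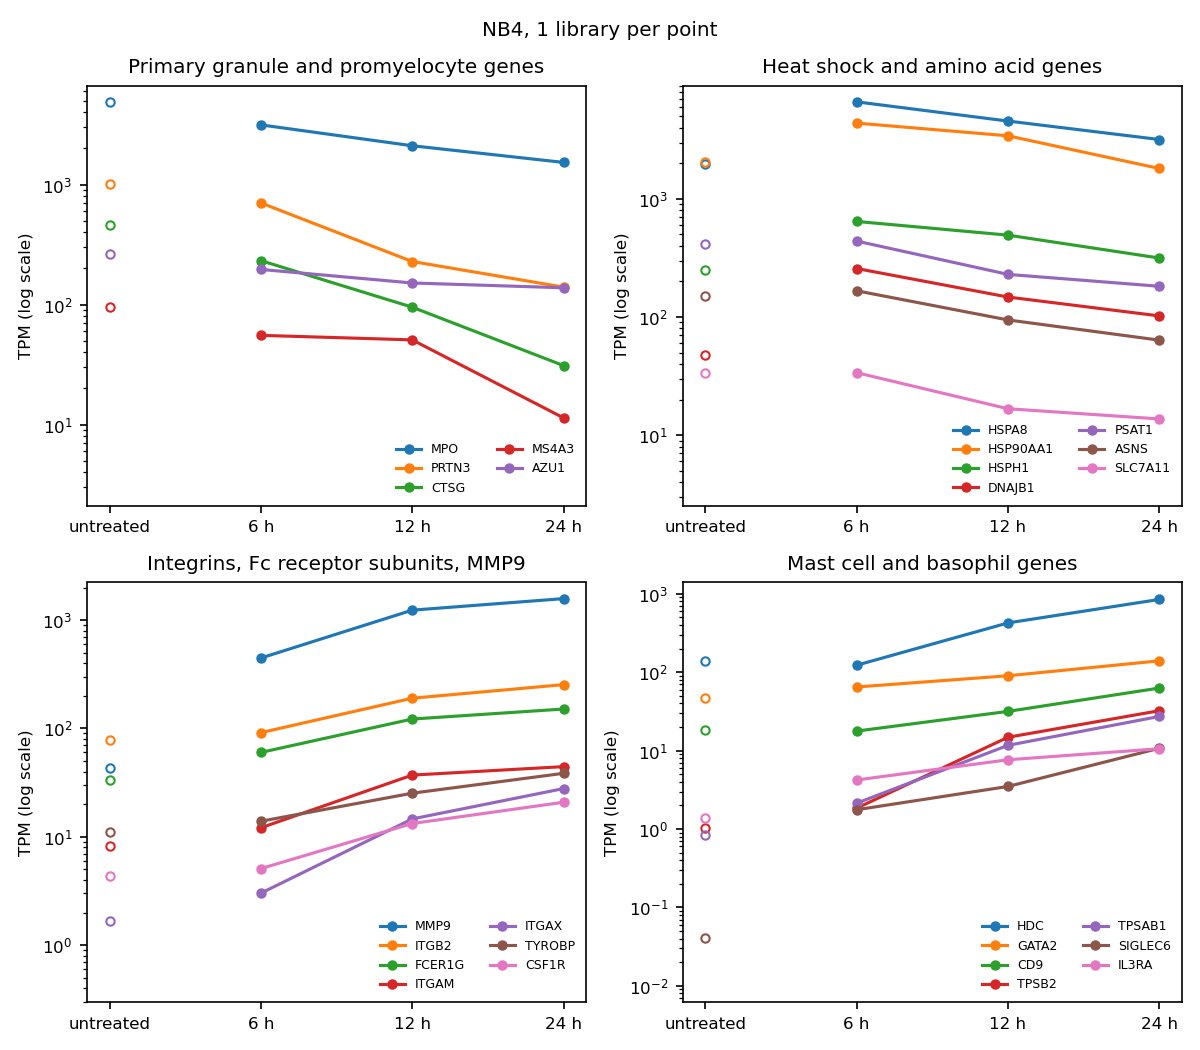
Levels of named genes in NB4 at 6, 12 and 24 h, with TPM on a logarithmic vertical axis and time in hours on the horizontal axis, 1 library per point and untreated values set apart. CTSG, PRTN3 and MPO descend at each step and ITGAX, ITGAM and HDC climb at each step, while the heat shock genes descend from their 6 h level.

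Other large rises concerned genes of varied roles. CCL3L3, a copy of the chemokine gene CCL3, was at 7.02, 31.6 and 109.0 TPM (log2 difference 3.78), and CCL3 itself at 56.1, 104.1 and 166.9 TPM (1.55), with reads that these copies share divided in a way not known here. C1orf186 was at 15.9, 27.6 and 119.4 TPM and CD300A, an inhibitory receptor of myeloid cells, at 0.650, 1.86 and 9.93 TPM, which are log2 differences of 2.83 and 2.73. FLOT1, a membrane raft protein gene on chromosome 6 (30695486 to 30710510, minus strand, hg19), rose by 2.66 on the log2 scale from 2.30 to 19.8 TPM with 11.8 TPM at 12 h, and lies next to TUBB, which was listed at 0. HERC2P7, a pseudogene, was at 0.900, 1.63 and 11.4 TPM (log2 difference 2.70). Of the 15 largest rises with a 12 h value in between, SNORD36A, SNORA77, SNORD3A and SNORD88C are small nucleolar RNAs. SNORD36A went from 0.0128 and 0.0192 TPM to 19.2 TPM at 24 h. SNORA77 was at 0.249, 0.454 and 15.3 TPM and SNORD3A at 0.589, 3.05 and 10.2 TPM. For SNORD88C the values were 0.0927, 3.98 and 6.42 TPM. RNAs of this length give few reads, and all but SNORD3A overlap another gene.

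The largest falls outside the granule genes were of mixed kinds. TOMM6, a small subunit of the mitochondrial import pore, was at 425.4, 404.7 and 15.7 TPM (log2 difference -4.68) after 28.6 TPM untreated, and it overlaps PRICKLE4, which was at 8.44, 7.28 and 64.9 TPM. CHAT, choline acetyltransferase, was at 21.2, 10.5 and 4.70 TPM (log2 difference -1.96) and VIT, vitrin, at 6.74, 2.88 and 0.918 TPM (-2.01). ZNF114, a zinc finger gene, was at 16.1, 4.57 and 4.01 TPM (-1.77), and DEPDC1, a gene of dividing cells, at 60.1, 42.4 and 18.9 TPM (-1.62). GRAMD1B, a sterol carrier of membrane contact sites, fell by 1.64 on the log2 scale from 5.63 to 1.13 TPM, and ALG10, an enzyme of N-glycosylation, was at 12.2, 9.27 and 3.69 TPM (-1.49). FAM110A was at 16.3, 15 and 2.23 TPM, a log2 difference of -2.42 that lay after 12 h. The remaining 4 of the 15 were the pseudogenes MTATP6P1 (19.4, 15.2 and 2.49 TPM), GOLGA8CP and FAM207BP, and MIR4444-1, with log2 differences of -2.54, -1.97, -1.70 and -1.77.

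Most heat shock genes stood lower at 24 h than at 6 h. Of 16 members, all tested, 15 lay below 0, 5 fell, none rose, and the median was -0.58 against -0.04 over all genes. The promoters of 3 that fell are shown for the heat shock elements in them, as 250 bases before the start site in GRCh38.p14 (RefSeq), read on the gene's strand, with the elements in capitals. For HSP90AA1 (chr14:102087045-102087294, minus strand) and HSPA8 (chr11:123062137-123062386, minus strand) the capitals mark GAANNTTCNNGAA on either strand, and for DNAJB1 (chr19:14518398-14518647, minus strand) the shorter GAANNTTC or TTCNNGAA, which is also a part of the longer one.
HSP90AA1: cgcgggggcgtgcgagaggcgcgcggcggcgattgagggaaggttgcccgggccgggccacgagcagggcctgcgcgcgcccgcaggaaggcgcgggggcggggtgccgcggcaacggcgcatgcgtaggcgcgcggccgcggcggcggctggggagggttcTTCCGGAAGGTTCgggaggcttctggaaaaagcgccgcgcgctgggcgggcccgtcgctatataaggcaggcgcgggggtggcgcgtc
HSPA8: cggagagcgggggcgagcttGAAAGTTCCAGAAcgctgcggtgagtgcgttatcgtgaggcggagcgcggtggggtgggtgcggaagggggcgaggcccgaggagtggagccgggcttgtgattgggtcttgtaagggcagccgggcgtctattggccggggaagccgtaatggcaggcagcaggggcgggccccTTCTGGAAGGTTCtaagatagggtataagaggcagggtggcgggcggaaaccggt
DNAJB1: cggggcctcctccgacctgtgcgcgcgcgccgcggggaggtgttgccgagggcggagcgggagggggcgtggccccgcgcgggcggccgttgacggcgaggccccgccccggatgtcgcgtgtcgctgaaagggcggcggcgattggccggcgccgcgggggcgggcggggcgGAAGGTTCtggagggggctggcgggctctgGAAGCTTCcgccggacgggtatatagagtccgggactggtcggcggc

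The longer element starts 88 bases before the start site of HSP90AA1 and 230 and 55 bases before that of HSPA8. The shorter one starts 77 and 47 bases before that of DNAJB1. HSP90AA1 is shown with 1 of 2 and DNAJB1 with 1 of 3 promoters in the RefSeq table. Of the 16 members 15 had a promoter there, and 4 of the 15 (26.7%; HSPA8, HSP90AA1, HSP90AB1 and HSPD1) held the longer element, against 0.557% of 27305 gene names. The shorter one was found for 10 of the 15 (66.7%), against 14% of gene names. These 10 included HSPB1, the only member above 0. HSPH1, which fell, was not among the members found with either element. A match describes letters in this window and shows no binding.

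HSPA8, the constitutive cytosolic HSP70, was at 6627.1, 4557.5 and 3180.3 TPM (log2 difference -1.06) after 1986.2 TPM untreated. HSP90AA1, the inducible HSP90, was at 4380.9, 3419.1 and 1808.5 TPM (-1.28). DNAJB1, an HSP40 that works with HSP70, had the lowest log2 difference, -1.32, with 257.3, 147.6 and 102.1 TPM, with 47.2 TPM untreated. HSPH1 was at 644.1, 493.1 and 315.6 TPM (-1.03). HSPA1B, an inducible HSP70, was at 19.0, 8.18 and 8.91 TPM (-1.01) and its near-identical copy HSPA1A at 12.3, 8.57 and 5.80 TPM (-0.97), with an uncertain division of reads. With FPKM the differences of HSPH1 and HSPA1B were -0.97 and -0.87, short of 2-fold. HSPB1 alone lay above 0 (68.8, 95.9 and 81.6 TPM). The summed level of the list was 19328, 14604 and 10815 TPM against 10672 TPM untreated, so that at 24 h the sum stood near the untreated one, with DNAJB1, HSPA8 and HSPA1B above their untreated levels and HSP90AA1 and HSPD1 (1126.9 TPM after 1758.7 TPM) below. The medians of the early and the late step were -0.31 and -0.29.

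Genes of amino acid supply also stood lower at 24 h. ASNS, asparagine synthetase and a known ATF4 target, was at 166.7, 94.4 and 63.7 TPM, a log2 difference of -1.37, after 151.6 TPM untreated. Its promoter (chr7:97872409-97872658, minus strand, GRCh38.p14, RefSeq) is shown because the ATF4-type element TGATGNAA, in capitals, starts 68 bases before the start site in it.
ASNS: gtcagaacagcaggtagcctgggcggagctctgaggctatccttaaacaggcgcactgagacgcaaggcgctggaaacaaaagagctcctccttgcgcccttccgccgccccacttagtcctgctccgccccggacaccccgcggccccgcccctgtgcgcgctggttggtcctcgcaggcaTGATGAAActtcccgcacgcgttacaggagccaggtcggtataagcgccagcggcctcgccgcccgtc

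PSAT1, an enzyme of serine synthesis, was at 439.4, 229.4 and 182.0 TPM (log2 difference -1.27), and MTHFD1L, of the mitochondrial one-carbon pathway, at 96.2, 66.0 and 47.0 TPM (-1.02). Of 11 tested serine and one-carbon enzymes these 2 fell, 10 lay below 0 and the median was -0.42. SLC7A11, the cystine transporter, fell by 1.24 on the log2 scale (33.8, 16.7 and 13.7 TPM). SLC7A5, which carries large neutral amino acids, was at 1055.9, 744.4 and 581.2 TPM (-0.86), and 8 of 9 tested transporters lay below 0 with a median of -0.46. All 12 tRNA synthetases lay below 0 and none fell by 2-fold, with a median of -0.42 and EPRS lowest (168.4, 121.8 and 98.2 TPM, log2 difference -0.77).

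The wider integrated stress response did not move as one. Of 14 tested members ASNS fell, 12 lay below 0 and the median was -0.30, while PPP1R15A, the phosphatase subunit GADD34, was at 81.6, 105.0 and 124.5 TPM (log2 difference 0.60). ATF4 itself was at 809.9, 636.6 and 626.0 TPM and TRIB3 at 167.2, 202.5 and 206.2 TPM. In this list the median was -0.41 for the early step and 0.03 for the late one, so the decrease lay before 12 h. The element TGATGNAA was found for 8 of 38 members with a promoter of the 46 tested in these 4 lists (21.1%), against 3.89% of gene names. Chaperones of the endoplasmic reticulum had a median of -0.04, equal to that of all genes, with no member of 21 called and HSPA5 lowest (969.4, 803.4 and 637.6 TPM, log2 difference -0.60).

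**Figure D3:**
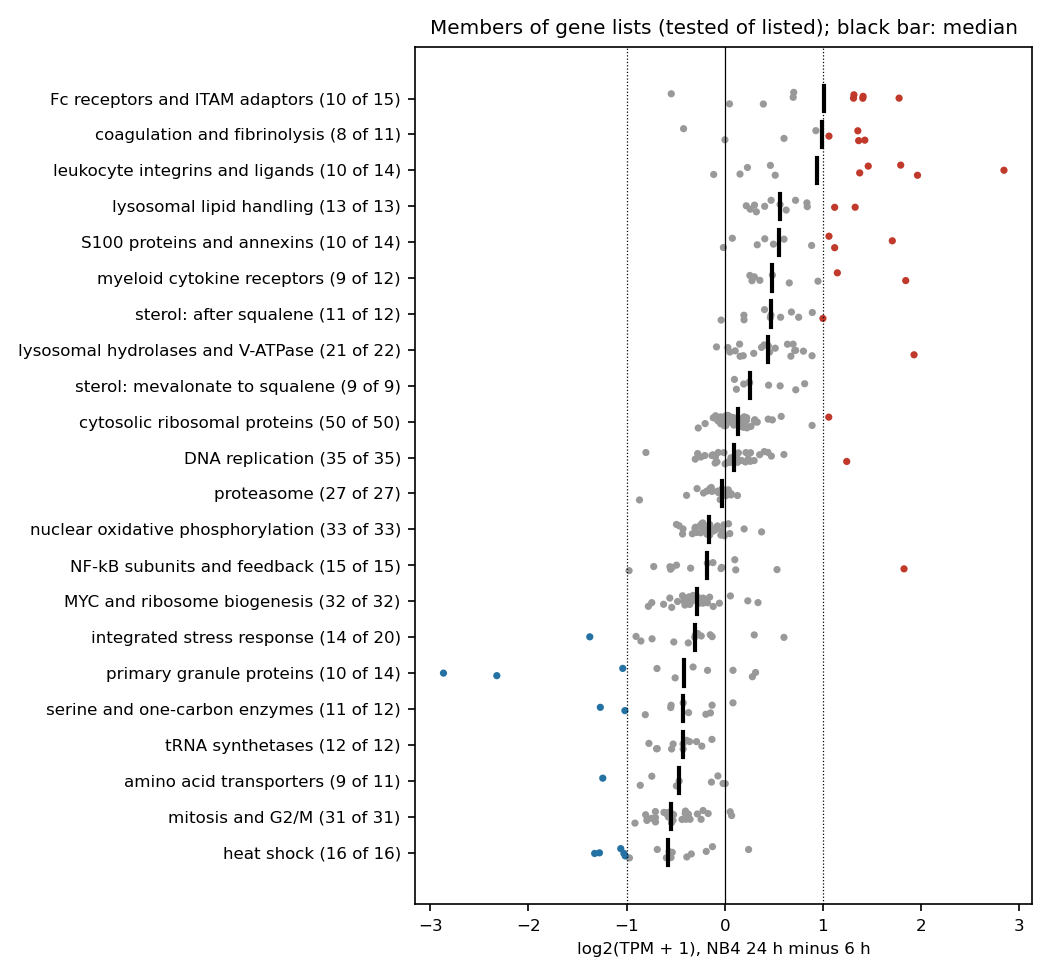
Log2(TPM + 1) difference between 24 h and 6 h (horizontal axis) of every tested member of the gene lists named on the vertical axis, 1 library per time, with the median of each list as a black bar and dotted lines at 2-fold. Members of the heat shock, mitosis and tRNA synthetase lists lie mostly left of 0 and those of the integrin, Fc receptor and lysosomal lists mostly right of it.

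The cell cycle lists separated in time. Of 31 mitosis genes, all tested, 29 lay below 0 at 24 h with a median of -0.54, although none passed 2-fold. The decrease came late: the median was 0.04 between 6 and 12 h and -0.55 between 12 and 24 h. CDC20, an activator of the anaphase-promoting complex, was lowest in difference (276.2, 270.4 and 146.1 TPM, -0.91). CCNB1, cyclin B1, was at 282.1, 294.8 and 161.0 TPM, and PLK1, a mitotic kinase, at 296.5, 305.2 and 171.3 TPM. AURKB had the highest difference at 0.07, with 111.3, 112.2 and 116.9 TPM. The summed level was 4911, 4989 and 3461 TPM, against 3975 TPM untreated.

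DNA replication genes mostly had their lowest level at 12 h. In 29 of the 35 members the 12 h value was the lowest of the 3, against 2460 of all 10921 genes. The median was -0.22 for the early step, 0.30 for the late one and 0.10 from 6 to 24 h. MCM5, a helicase subunit, was at 75.5, 60.7 and 100.2 TPM, PCNA, the polymerase clamp, at 577.9, 461.5 and 739.9 TPM, and E2F1, a factor that drives these genes, at 53.2, 43.0 and 81.4 TPM. TK1, thymidine kinase, was the only member that rose (24.2, 33.5 and 58.7 TPM, 1.24 on the log2 scale). Of the clustered histones 4 of 14 passed the filter, and HIST1H2BD (1.02, 2.53 and 5.52 TPM) and HIST1H2BK (28.6, 35.9 and 77.6 TPM) rose by 1.69 and 1.41 on the log2 scale. HIST1H1C, HIST1H2BC and HIST1H2BD passed only through the 24 h library, so the count of histone rises carries no weight. The 10 members that did not pass stayed at or below 2.76 TPM. CDKN1A, the inhibitor p21, rose by 1.81 (7.88, 23.5 and 30.1 TPM) and was the only 1 of 13 tested G1 cyclins and inhibitors that passed 2-fold.

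MYC and ribosome biogenesis had no member of 32 past 2-fold, but 29 lay below 0 with a median of -0.29. ODC1, the first enzyme of polyamine synthesis, was lowest (530.7, 387.7 and 309.1 TPM, -0.78), and NPM1, nucleophosmin, was at 4170.0, 2617.5 and 2491.5 TPM (-0.74). MYC had the highest difference of the list, with 32.2, 46.9 and 41.0 TPM after 86.2 TPM untreated. Cytosolic ribosomal proteins stood at a median of 0.14, and 1 of 50, RPL15, passed 2-fold (532.9, 547.7 and 1112.4 TPM), a gene that overlaps another.

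**Figure D4:**
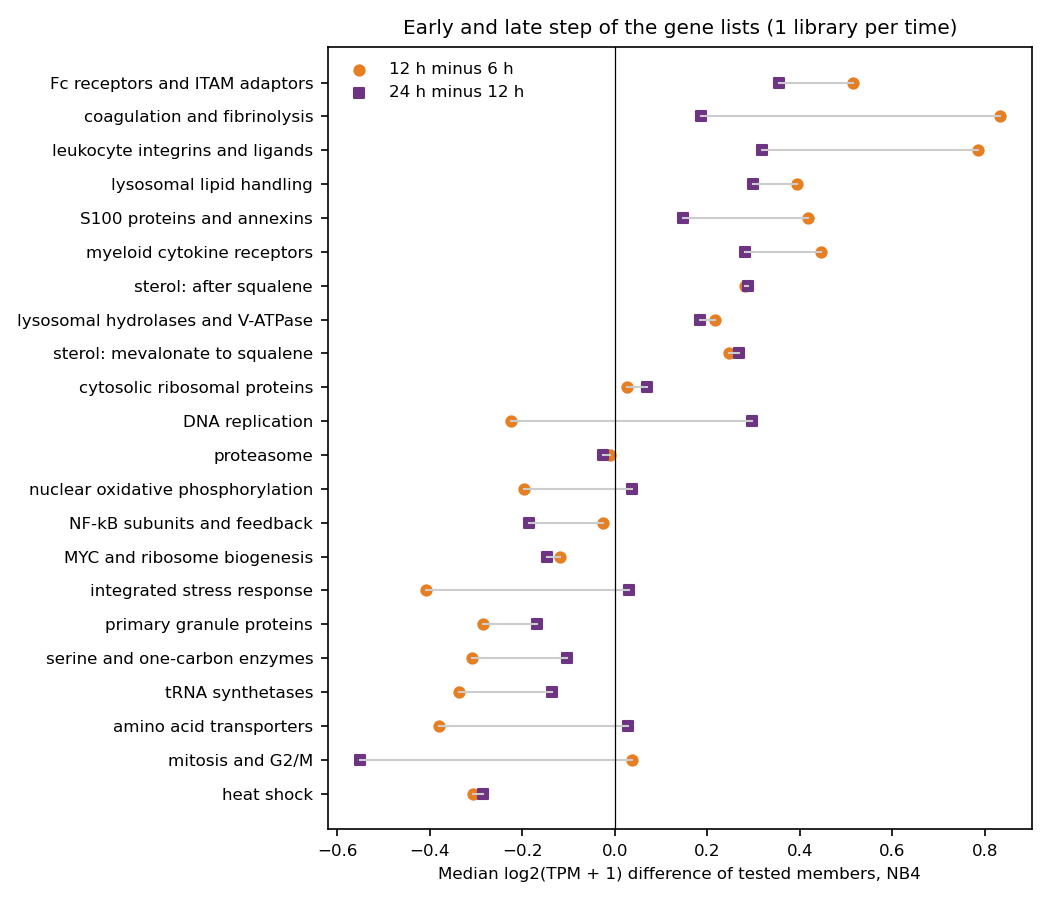
Median log2(TPM + 1) difference of the tested members of each gene list (vertical axis) for the step from 6 to 12 h (circles) and from 12 to 24 h (squares), 1 library per time. The mitosis list has an early median of 0.04 and a late one of -0.55, the DNA replication list goes from -0.22 to 0.30, and the integrin list from 0.78 to 0.32.

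Cholesterol synthesis genes lay slightly higher at 24 h than at 6 h. The summed level of the 9 genes from mevalonate to squalene was 2143.1, 2418.3 and 2938.3 TPM, against 688.8 TPM untreated. All 9 lay above 0, none passed 2-fold, and the median was 0.25. HMGCS1, an early enzyme of the pathway, was highest in difference (373.7, 473.2 and 658.0 TPM, 0.81). After squalene, 10 of 11 tested enzymes lay above 0 with a median of 0.47, and SQLE, squalene epoxidase, was the only one at 2-fold (173.8, 232.9 and 348.6 TPM, a log2 difference of 1.0004). Of 12 fatty acid genes ACSS2, which makes acetyl-CoA from acetate, rose by 1.02 (50.5, 68.3 and 103.5 TPM), while FASN was at 736.5, 714.9 and 620.2 TPM and the median was 0.06.

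Nearly all lysosomal genes lay above 0, and 3 of them rose by 2-fold. All 13 genes of lysosomal lipid handling lay above 0, with a median of 0.56, and 20 of 21 tested hydrolases and proton pump subunits, with a median of 0.44. NPC2, which passes cholesterol out of the lysosome with NPC1, was at 32.9, 58.5 and 84.1 TPM (1.33 on the log2 scale), and NPC1 at 29.1, 28.8 and 39.0 TPM (0.41). GM2A, the GM2 activator, rose by 1.12 (10.6, 18.2 and 24.3 TPM). PSAP, the precursor of the saposins, was at 357.7, 461.1 and 641.6 TPM (0.84). Of 20 tested autophagy genes none passed 2-fold and the median was 0.12, with RRAGD, a GTPase of the mTORC1 pathway, highest (5.37, 6.92 and 11.7 TPM, 0.99).

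Inflammatory genes split. Of 15 NF-kB subunits and feedback genes 11 lay below 0, with a median of -0.18. NFKBIA, the inhibitor of NF-kB, was at 272.4, 225.1 and 164.6 TPM (log2 difference -0.72) and REL at 8.11, 6.49 and 3.64 TPM (-0.97), whereas TRAF1 rose by 1.83 (2.56, 13 and 11.6 TPM) and was at its highest at 12 h. Among 10 tested chemokines and cytokines the counts were 2 higher and 1 lower. CCL3 and IL1RN, the interleukin 1 receptor antagonist (6.60, 11.4 and 23.5 TPM, 1.69 on the log2 scale), rose, and CCL4 fell by 1.47 (28.0, 19.3 and 9.47 TPM). IL8 (187.8, 276.9 and 134.4 TPM) and CXCL10 (183.1, 244.7 and 122.2 TPM), both neutrophil or lymphocyte attractants, had their highest value at 12 h. CCL5 was at 246.7, 282.6 and 466.1 TPM (0.91).

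Early response genes and the feedback of the MAP kinase pathway contained rises and no falls. KLF6 (11, 20.9 and 28.8 TPM), KLF10 (18.2, 39.7 and 41.9 TPM) and FOSB (2.32, 3.63 and 6.05 TPM) rose by 1.32, 1.16 and 1.09 on the log2 scale, 3 of 18 tested, with a median of 0.48. DUSP5 and DUSP6 are phosphatases that switch off ERK. DUSP5 was at 6.21, 15.5 and 28.4 TPM (2.03) and DUSP6 at 60.0, 113.9 and 143.4 TPM (1.24). PHLDA1 rose by 1.75 (14, 28.3 and 49.7 TPM), so that 3 of 14 tested feedback genes rose, with a median of 0.21.

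Among cell death genes, the BH3-only gene BMF, which is known to bind pro-survival BCL2 proteins, rose by 1.60 on the log2 scale (13, 23.7 and 41.3 TPM). BBC3, which encodes PUMA, was at 95.6, 63.0 and 62.0 TPM (-0.62), and BCL2L11, which encodes BIM, at 14.9, 14.2 and 14.2 TPM. The pro-survival member BCL2A1 rose by 1.40 (16.0, 42.2 and 43.8 TPM) and MCL1 was at 200.3, 240.8 and 209.9 TPM. Of 15 tested death receptors and caspases TNFSF10, the ligand TRAIL, rose by 1.04 (7.77, 12.5 and 17.0 TPM), and FAS was lowest (11.5, 10.8 and 6.14 TPM, -0.81). The medians of the 3 groups were -0.15, 0.07 and 0.12.

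Glycolysis as a whole had a median of 0.24, and 4 of 25 tested members rose. ENO2 (2.22, 8.10 and 13.8 TPM) and ALDOC (16.4, 36.7 and 63.7 TPM), isoforms best known from the nervous system, rose by 2.20 and 1.89 on the log2 scale. PFKFB4, a regulator of the pathway, rose by 1.28 (8.82, 16.1 and 22.8 TPM) and HK1, a hexokinase, by 1.15 (2.62, 4.29 and 7.06 TPM), while LDHA was at 1143.6, 910.6 and 1238.0 TPM. Of 12 tested interferon-stimulated genes, IFI6 (12.5, 19.8 and 37.5 TPM) and IRF9 (5.88, 8.93 and 13.1 TPM) rose by 1.51 and 1.04, with a median of 0.37. Among 5 tested retinoid targets UBA7 rose by 1.61 (4.23, 7.45 and 15 TPM) and CD38 fell by 1.31 (25.9, 17.7 and 9.89 TPM). NCOA4, the receptor for the autophagy of ferritin, fell by 1.17 (160.1, 153.8 and 70.6 TPM). TUBA4A, an alpha-tubulin gene, was the only 1 of 9 tested tubulins past 2-fold (18.1, 15.7 and 40.6 TPM, 1.13), after 141.0 TPM untreated.

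No member of the remaining large complexes passed 2-fold. The 27 proteasome genes had a median of -0.03, with differences from -0.87 (PSMA4) to 0.13. The 33 nuclear genes of oxidative phosphorylation had a median of -0.16 and lay between -0.49 and 0.38, with 29 below 0 and 18 at their lowest at 12 h. The 13 mitochondrially encoded mRNAs had a median of 0.19, with 11 above 0 and 11 at their highest at 12 h.

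A slope fit took the 6 treated libraries of both lines and estimated a slope of log2(TPM + 1) per doubling of time in each line. The spread of each gene was shared by both lines. The p-values of the fit test the slope against 0, set against the departure from a straight line with 2 residual degrees of freedom. They do not measure the spread of cultures. Of 12329 genes, none had an NB4 slope with a Benjamini-Hochberg adjusted p under 0.05 in limma, while 925 rising and 594 falling slopes had an unadjusted p under 0.05. The lowest adjusted p was 0.143, for CTSG with a slope of -1.43 (SE 0.10) and CCL3L3 with 1.89 (SE 0.14) in limma. MPO had a slope of -0.52 (SE 0.12), PRTN3 of -1.16 (SE 0.15), HDC of 1.39 (SE 0.14) and ITGAX of 1.42 (SE 0.20). Each SE draws on the points of both lines and does not measure the scatter of NB4 alone. It is also drawn toward the spread of genes of like level. HDC was near 0 in treated Kasumi-1, at 0.249, 0.376 and 0.279 TPM, so those points add little scatter to its SE.

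The difference of slopes between NB4 and Kasumi-1 likewise passed for none of the 12329 genes in limma, with 1058 higher and 524 lower slopes in NB4 at an unadjusted p under 0.05. CCL3L3 had the lowest adjusted p (0.0876 in limma), with a difference of 3.34 (SE 0.20) per doubling: against the NB4 course of 7.02, 31.6 and 109.0 TPM, Kasumi-1 had 228.1, 113.2 and 29.6 TPM. PLAUR differed by 1.78 (SE 0.17; adjusted p = 0.137 in limma), with 150.8, 66.5 and 32.3 TPM in Kasumi-1 at 6, 12 and 24 h. For CTSG the difference was -0.06 (SE 0.14), with 19.0, 6.08 and 1.98 TPM in Kasumi-1, so it decreased there too from a far lower level. ASNS differed by -0.01 (SE 0.11), with 266.0, 165.3 and 103.4 TPM in Kasumi-1. HDC and MMP9 had no more than 0.376 TPM in treated Kasumi-1. Other mast cell and basophil genes were higher at 24 h than at 6 h there too. These were TPSB2 (25.8, 57.4 and 88.8 TPM), TPSAB1 (9.17, 17.8 and 28.4 TPM) and SIGLEC6, whereas CD9, IL3RA and GATA2 were lower. List medians from 6 to 24 h in Kasumi-1 stood at -0.84 for heat shock and 0.14 for mitosis, beside -0.58 and -0.54 in NB4, and at 0.04 for integrins and -0.06 for Fc receptors, beside 0.94 and 1.01. The members in these medians are those that passed the filter in NB4, whatever their level in Kasumi-1. Some were low there, such as ITGAM (1.38, 1.85 and 1.54 TPM) and TYROBP (1.24, 2.90 and 2.09 TPM). For such genes the added 1 makes any difference smaller. The differences between list medians were not tested.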

How the data were processed

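Total RNA of 3 NB4 libraries (6, 12 and 24 h) was compared, with 1 untreated NB4 and 3 treated Kasumi-1 libraries as reference. Libraries were made with an Illumina TruSeq kit, per the labels' protocols, and processed with HISAT2 and StringTie on hg19, per the submitters' processing notes. Tool versions and the gene annotation were not stated in the sources used here. The deposited TPM and FPKM values of 57820 gene IDs are scaled for length and depth, and the deposited coverage values are a signal of read depth over each gene, per the file headers. The commonest ratio of coverage to FPKM, which follows depth if FPKM was scaled to all aligned bases, was 8.85, 7.08 and 7.79 at 6, 12 and 24 h, shared by 12.2% to 13.3% of genes. Read counts are not given, so no interval for counting error was computed.

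TPM were summed by gene name (299 names had more than 1 row), and genes with at least 5 TPM at 6, 12 or 24 h were compared as log2(TPM + 1), 24 h minus 6 h, called at 2-fold. The slope fit used limma 3.58.1 in R 4.3.3 (eBayes with an intensity trend, two-sided, Benjamini-Hochberg) on 12329 genes with at least 5 TPM in 1 of the 6 treated libraries. Its code was run on simulated data with large slopes and the same spread for all genes, which does not measure its power in these data. Tables were read with Python 3.11.15 and pandas 2.3.3. Gene types came from GENCODE 29, matched by gene ID for 91.3% of all 55765 gene names, and promoters from RefSeq tables by gene name and synonym. Coordinates of genes are those deposited.

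Named genes were the 15 largest rises and 15 largest falls with 12 h in between (above 0 in all 3 libraries, no clone names), the 5 farthest above and below both other times at 12 h, and the extremes and 2-fold members of each list; other list members named for their role or level were chosen after their values were seen. The members, lists and rules were chosen with earlier results of these data known, so lists are described by counts and medians and not tested. Alternatives were another pseudocount, filter, unit, scaling, centring and row rule, overlapping genes left out, and each end replaced by 12 h. Some genes are not reported here.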

Additional observations from a re-analysis of the deposited data

How the results depend on the processing

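The 403 rises and 105 falls stayed within 1.5 times under a pseudocount of 0.1, rescaling and centring on the median. The same held for the highest row of a gene name and for a filter at 6 or 24 h only. FPKM gave 335 rises and 70 falls, with the falls at the edge of this limit. With a pseudocount of 5 there were 190 rises and 55 falls, with at least 20 TPM 174 and 69, without a filter 691 and 173, and without overlapping genes (added after seeing the data) 213 and 58; the last 3 test other numbers of genes. With 12 h in place of 24 h there were 206 rises and 62 falls, and with 12 h in place of 6 h 152 and 109. SNORA21 (-1.75) and TUBA4A (-0.19) changed sign for 12 h over 6 h, and CYBB (-0.10), HSPA1B (0.11) and TRAF1 (-0.14) for 24 h over 12 h; the cause was not tested. Of 102 named genes past 2-fold, 76 were so under every setting that gave a value, those with 12 h in place of an end left out; 24 were not with a pseudocount of 5, 9 with FPKM and 4 after centring. The slope fits called 0 genes under each alternative, with lowest adjusted p from 0.136 to 0.458 for NB4 and from 0.0876 to 0.489 for the difference in limma. No paired analysis was possible because each line and time has 1 library. Values near 0 rest on few reads.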

Other observations

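Some genes stood apart at 12 h only. Farthest above both other times were DUXAP10 (1.06, 31.6 and 0.266 TPM at 6, 12 and 24 h), CDRT4 (0.277, 9.47 and 0.375 TPM), SNORD56 (3.79, 21.0 and 5.29 TPM), TRGJP2 (3.79, 13.1 and 2.50 TPM) and OLIG1, a transcription factor gene best known from glial cells (15, 45.8 and 10.4 TPM). Farthest below were SNORD24 (5.79, 0.166 and 6.03 TPM), BIVM-ERCC5 (29.2, 4.05 and 25.7 TPM), HRH1 (8.21, 1.42 and 10.1 TPM), SNORA21 (2.80, 0.133 and 7.99 TPM) and RUNX3 (34.1, 8.06 and 26.0 TPM). HRH1 encodes the histamine H1 receptor, one of the receptors that chlorprothixene binds, and RUNX3 a transcription factor of blood cells. DUXAP10, CDRT4, SNORD56, OLIG1, SNORD24, BIVM-ERCC5 and SNORA21 overlap another gene of at least 1 TPM.

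Among the genes with the largest differences were several that share bases with a neighbour, and these are listed after their values were seen. TOMM6 lies on chromosome 6 (41755400 to 41757636, plus strand, hg19), and PRICKLE4, which overlaps it on the same strand, had 64.3 TPM untreated. HNRNPH2 was at 108.4, 132.7 and 1.55 TPM, and the read-through gene RPL36A-HNRNPH2 at 5.81, 8.25 and 64.0 TPM. BLOC1S5-TXNDC5, another read-through gene, was at 112.6 TPM at 6 h and listed at 0 at 12 and 24 h.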
